A study of Mus musculus with 6 samples.

Results

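The genes described here are 8 genes of the B lymphocyte lineage, Cd79a, Cd79b, Ms4a1, Cd72, Cd22, Pax5, Blnk and Ebf1, read in RNA from T cells. They were taken by gene symbol, as every probe set that the platform annotation gives to 1 of these genes alone, which yielded 15 probe sets for 8 of the 18194 genes named on the array. The samples were T cells from mouse lymph nodes, each hybridised to a single-colour Affymetrix array. On 3 arrays the cells came from Ezh2 fl/fl mice, whose Ezh2 alleles are floxed in the usual notation and which serve as controls, and on 3 arrays they were Ezh2 deficient. The labels used here give no Cre driver or other means of deletion, no strain, age or sex, and no method by which the T cells were purified. They also leave unsaid whether each array had its own animal. The p-values therefore reflect the spread between samples only, and part of that spread may be technical.

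B cells recognise antigen through a surface immunoglobulin that cannot signal by itself. It is paired with a heterodimer of CD79A and CD79B, whose cytoplasmic tails recruit kinases, and the adaptor encoded by Blnk passes the signal on to downstream enzymes. CD22 and CD72 are inhibitory coreceptors that recruit phosphatases and restrain this signal, and CD20, the product of Ms4a1, is a membrane protein of mature B cells. Ebf1 and Pax5 encode transcription factors that specify the lineage and commit cells to it. In a purified T cell sample these genes are commonly read as markers of B cells.

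The promoter windows of Cd72 and Cd22 are shown because both genes encode inhibitory coreceptors and their log2 differences between the groups had opposite signs, though neither passed the test. RefSeq windows of build GRCm38.p6, from 250 bases before the start site to 50 after it, were found for 6 of the 8 genes, with 2 windows for Ebf1. They were searched on both strands for CCCNNGGG, the core that EBF proteins bind, and for GAGGAA, a core of PU.1 sites. Capitals mark the matches. The Cd72 window (chr4:43454577-43454876, minus strand) holds GAGGAA on its reverse strand, 47 bases before the start site. The Cd22 window (chr7:30878979-30879278, minus strand) holds CCCNNGGG, 48 bases before the start site. Both windows lie inside the annotated spans of their genes, chr4:43447724-43455102 for Cd72 and chr7:30865404-30880342 for Cd22. Their start sites are thus internal to those spans.
Cd72: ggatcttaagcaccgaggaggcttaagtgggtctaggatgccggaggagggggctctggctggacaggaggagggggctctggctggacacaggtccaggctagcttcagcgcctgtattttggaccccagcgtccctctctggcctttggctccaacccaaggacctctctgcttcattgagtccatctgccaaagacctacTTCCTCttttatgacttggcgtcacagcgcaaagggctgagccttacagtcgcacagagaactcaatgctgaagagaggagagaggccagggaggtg
Cd22: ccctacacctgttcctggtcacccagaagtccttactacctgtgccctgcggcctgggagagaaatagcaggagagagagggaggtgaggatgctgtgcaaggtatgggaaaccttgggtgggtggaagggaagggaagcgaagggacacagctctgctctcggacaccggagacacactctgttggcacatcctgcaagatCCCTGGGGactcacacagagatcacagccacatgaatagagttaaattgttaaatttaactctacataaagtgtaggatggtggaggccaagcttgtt
Of the other windows, that of Cd79a and 1 of the 2 of Ebf1 hold GAGGAA. The other Ebf1 window and those of Pax5 and Blnk hold neither motif. No window holds both motifs. Among all 32851 windows of this length in the table, 13.7% hold CCCNNGGG and 28.3% hold GAGGAA, so a match is common and describes only the letters.

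The T cell label was met by the defining T cell markers. Cd3e had normalised intensities of 6671 to 6887 in the Ezh2 fl/fl arrays and 5691 to 7663 in the deficient arrays, and all 15 T cell markers examined passed the filter on dim probe sets. That filter removed the dimmest 40% of probe sets by mean log2 value, with a cutoff that corresponds to an intensity of 113. Ezh2 itself averaged 688 ± 111 against 282 ± 6.55 under Ezh2 deficiency (SD over 3 arrays, here and below), with no overlap. Its log2 difference was -1.16 (limma adjusted p = 0.0705), so even Ezh2 was not called at an adjusted p under 0.05. Array medians before normalisation ran from 163.3 to 188.1, the highest being that of Ezh2 fl/fl replicate 1, which was also an outlying array by principal components. Differences that are given below for a gene's brightest probe set are also given without that array where leaving it out moved them by over 1.5 times or turned their sign.

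No probe set of the 8 genes passed the test for a difference between the groups. Of the 15 probe sets, 6 from 6 genes passed the filter and were tested, and 9, among them the only probe sets of Cd79a and Blnk, did not. By limma 0 of the 6 were called at an adjusted p under 0.05, where 0.0037% of all 27022 tested probe sets were called. At an unadjusted p under 0.05 there was 1, for Cd72, against 7.22% of all tested probe sets. In normalised values the groups did not overlap for 2 of the 6, Cd72 and Pax5, against 13.1% of all tested probe sets. Before normalisation the Pax5 groups did overlap. Counting the brightest probe set of each gene, 4 of the 8 genes had a positive difference (deficient minus fl/fl) and 4 a negative one, against 49.3% positive over all tested probe sets, and their median log2 difference was -0.0056, beside -0.0029 over all tested probe sets. Differences are on the log2(intensity + 43.3) scale, which understates changes of dim probe sets. In RNA from a bulk sample, fewer cells of a type and less RNA per cell cannot be told apart. Which cells gave the RNA of the 8 genes was not tested.

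**Figure D1:**
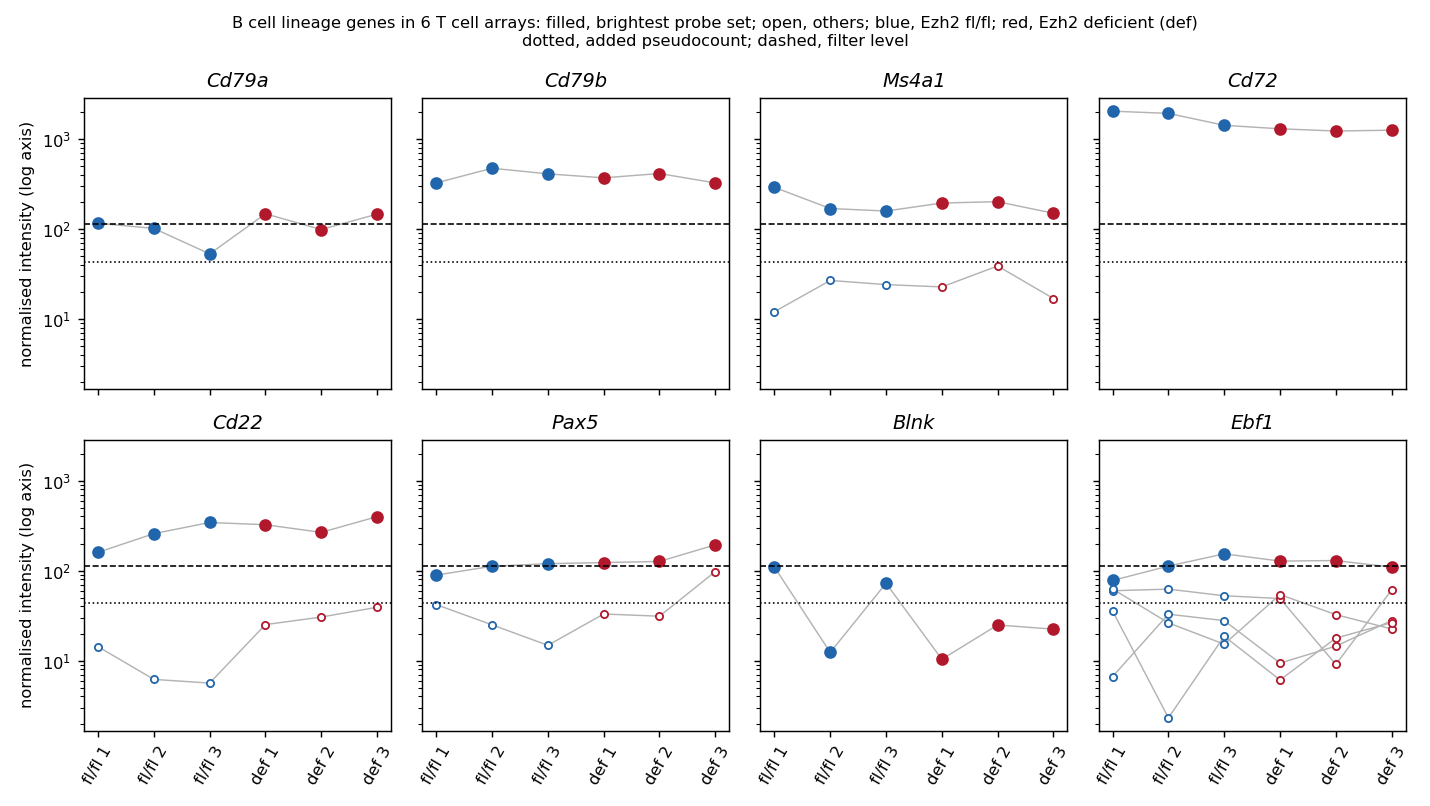
Normalised intensity (log axis) of every probe set of the 8 genes on the 6 arrays, with Ezh2 fl/fl in blue and Ezh2 deficient (def) in red. Filled points are each gene's brightest probe set and open points its other probe sets, grey lines join the values of 1 probe set and imply no order, the dotted line is the pseudocount of 43.3 and the dashed line the filter level of 113. Every Cd72 value of the deficient arrays lies below every value of the fl/fl arrays, and most of the open points lie below the dotted line.

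Of the signalling pair of the receptor, Cd79b was read well above the filter level with groups that overlapped, and Cd79a lay around the filter level. Cd79b read 325, 472 and 409 in the controls and 370, 413 and 324 in the deficient arrays, given here and below in the order of replicates 1 to 3. The ranges overlapped almost fully, with the lowest value of the controls within 1 unit of the lowest of the deficient arrays. The log2 difference was -0.10 (SE 0.15, limma adjusted p = 0.903), with a 95% interval from -0.44 to 0.24, that is, from 1.36-fold lower to 1.18-fold higher. It was -0.24 (adjusted p = 0.776) without Ezh2 fl/fl replicate 1 and 0.0087 (adjusted p = 0.991) without Ezh2 fl/fl replicate 2. Cd79a, the partner chain, read 116, 101 and 52.8 in the controls and 147, 98.5 and 146 in the deficient arrays. Its deficient replicates 1 and 3 were above every control, but replicate 2 lay within the control range. It was below the filter, so its log2 difference of 0.40 has no p in the main test. Without the filter its limma adjusted p was 0.821. Leaving out Ezh2 fl/fl replicate 3, its lowest array, gave 0.18 (adjusted p = 0.858).

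Cd72 had the smallest p of the 6 tested probe sets. It read 2034, 1922 and 1417 in the Ezh2 fl/fl arrays and 1296, 1224 and 1251 in the deficient arrays. All 3 deficient arrays lay below the lowest control, and they were much closer to each other (SD 36.2) than the controls were (SD 329). The mean of the deficient arrays was 70.2% of the control mean, and the log2 difference was -0.48 (SE 0.13, 95% interval -0.77 to -0.19). The unadjusted limma p was 0.0041, the 214th smallest of 27022, and the adjusted p was 0.520, so the difference did not pass. Leaving out the control array that stood apart gave -0.38 (adjusted p = 0.636), and leaving out Ezh2 fl/fl replicate 3, the lowest control, gave -0.64 (adjusted p = 0.156). Over all alternatives the adjusted p ran from 0.156 to 0.885. This probe set carries the suffix _a_at, which marks probes shared by several transcripts of 1 gene.

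Cd22, the other inhibitory coreceptor, leaned the other way with more scatter. Its brighter probe set read 160, 258 and 343 in the controls and 324, 266 and 398 in the deficient arrays. The groups overlapped, and Ezh2 fl/fl replicate 1 was the lowest of all 6. The log2 difference was 0.36 (SE 0.23, adjusted p = 0.766, 95% interval -0.16 to 0.89), and it was 0.11 (adjusted p = 0.927) without that array. The other Cd22 probe set was dim everywhere, at 5.6 to 14.3 in the controls and 25.2 to 39.2 in the deficient arrays. Its groups did not overlap, but all 6 values were under the pseudocount, so no fold is given. When no filter was applied it had the smallest p of the 15 probe sets (unadjusted p = 0.0045, adjusted p = 0.604), just ahead of Cd72 (adjusted p = 0.609). The difference between the Cd72 and Cd22 responses was not tested.

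The mature B cell surface gene Ms4a1 passed the filter on 1 of its probe sets, and the adaptor gene Blnk lay under it on every array. The brighter Ms4a1 probe set read 290, 169 and 158 in the controls and 194, 201 and 149 in the deficient arrays, so that Ezh2 fl/fl replicate 1 was the highest and the other 5 arrays lay between 149 and 201. Its log2 difference of -0.12 (SE 0.21, adjusted p = 0.927) became 0.11 (adjusted p = 0.926) without that array. The other Ms4a1 probe set lay between 12 and 38.8, under the pseudocount on all 6 arrays. Blnk read 110, 12.3 and 72.4 in the controls and 10.4, 24.9 and 22.4 in the deficient arrays. Its control values spread over most of the range from background to the filter level, and replicate 2 of the controls was as low as the deficient arrays. The log2 difference was -0.68, with an adjusted p of 0.792 when no filter was applied. It ran from -0.36 without Ezh2 fl/fl replicate 1 to -1.10 without Ezh2 fl/fl replicate 2, and was -0.29 with the pseudocount 4 times higher.

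The lineage transcription factors were read near the filter level or below it. The brighter Pax5 probe set read 89.3, 112 and 119 in the controls and 123, 127 and 193 in the deficient arrays. The groups did not overlap, although the lowest deficient value lay only just above the highest control, and deficient replicate 3 stood above the rest. Before normalisation they did overlap, with deficient replicate 1 at 117.1 and Ezh2 fl/fl replicate 3 at 118.6. The log2 difference was 0.33 (SE 0.20, adjusted p = 0.751, 95% interval -0.12 to 0.79), and it was 0.17 (adjusted p = 0.937) without deficient replicate 3. The other Pax5 probe set was under the pseudocount on 5 of 6 arrays, and deficient replicate 3, at 97.5, was again its highest.

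Ebf1 was covered by 5 probe sets, of which 1 passed the filter. That probe set read 77.8, 112 and 154 in the controls and 128, 130 and 109 in the deficient arrays. The deficient values lay inside the control range, and the log2 difference was 0.09 (SE 0.21, adjusted p = 0.941), or -0.08 without Ezh2 fl/fl replicate 1. The other 4 probe sets did not exceed 62.6 on any array, and their differences, from -0.35 to 0.06, had no common direction.

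**Figure D2:**
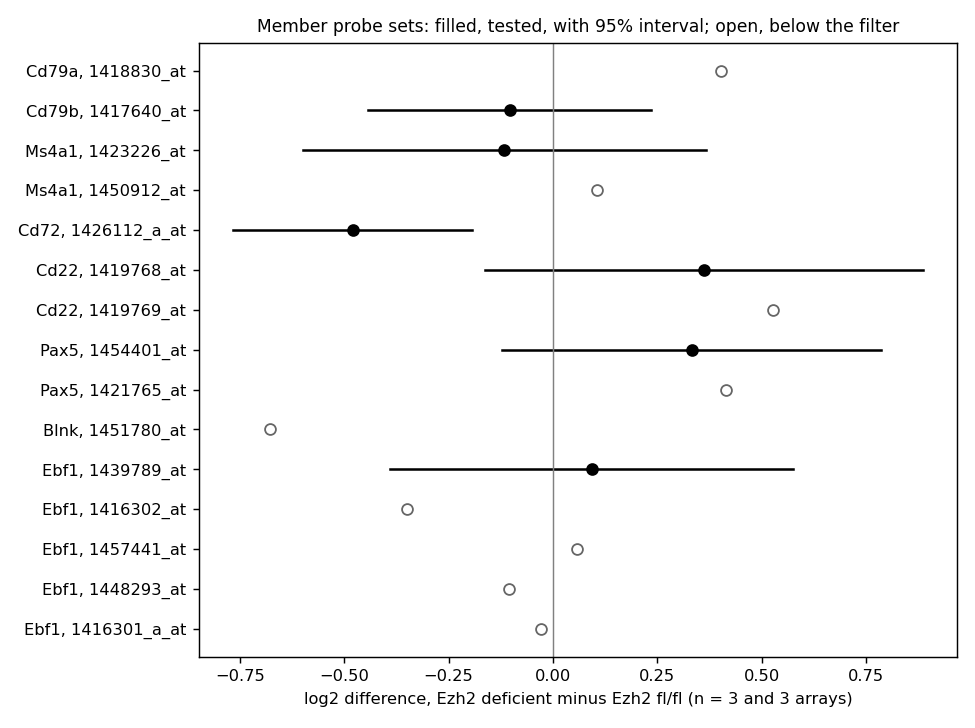
Log2 difference, Ezh2 deficient minus Ezh2 fl/fl (3 arrays each), for the 15 probe sets. Filled points are the 6 tested probe sets with their 95% limma intervals (without adjustment for multiple tests), and open points are the 9 below the filter. Only the Cd72 interval, -0.77 to -0.19, does not reach 0, and its adjusted p was 0.520.

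The 8 genes did not rise and fall together across arrays. Relative to the mean of the controls, Ezh2 fl/fl replicate 1 was the highest array for 3 genes (Ms4a1, Cd72 and Blnk) and the lowest for 3 others (Cd22, Pax5 and Ebf1). Ezh2 deficient replicate 3 was the highest for 2 genes, Cd22 and Pax5, and the lowest for 2, Cd79b and Ms4a1. The median deviation of the 8 genes lay between -0.14 and 0.08 log2 units on every array, and the lowest of these medians was that of deficient replicate 3, while deficient replicates 1 and 2, at 0.06 and 0.08, stood within the control range of 0.01 to 0.08. No array was thus high for the whole group of genes. The averaged profile of the 6 tested genes was nearly flat, with a root mean square size of 0.054 over the 6 arrays. The probe sets nearest to it by root mean square difference of centred log2 values, among 21996 others, were accordingly ones with steady signals: Ubqln1 (distance 0.013), Rps18, Cs, Ndufs3, Galnt1, Ctnnb1, Psmd6 and Hnrnpab (0.019). These all differed by 0.03 or less between the groups, and all had Ezh2 fl/fl replicate 1 as their lowest array. The averaged profile was also lowest on that array, at -0.11. The profile of Cd72 alone was nearest, by the same measure, to D630039A03Rik (distance 0.059) and Fam124b (0.062), which were picked once their values were known and had log2 differences of -0.45 and -0.48.

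**Figure D3:**
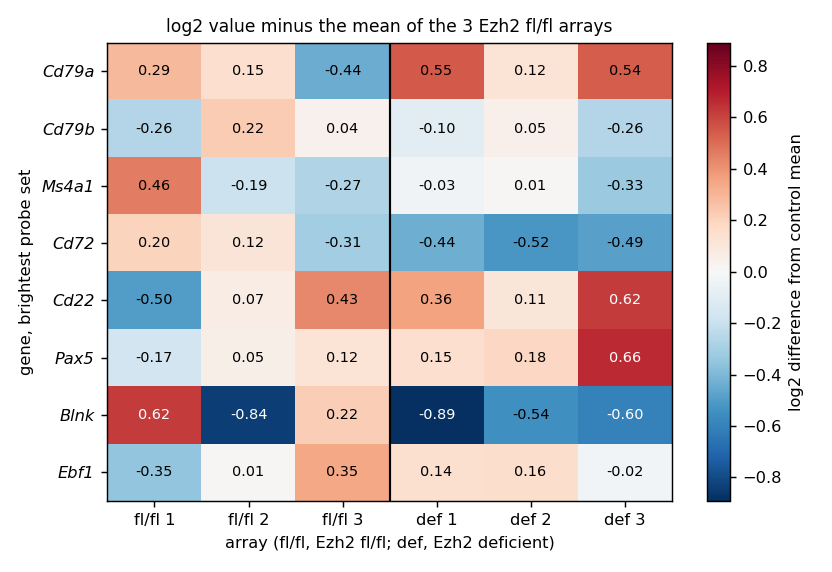
Log2 value of each gene's brightest probe set on each array minus the mean of the 3 Ezh2 fl/fl arrays, with red above and blue below, and the black line between the groups. Cd72 (-0.44, -0.52 and -0.49) and Blnk are below the control mean on all 3 deficient arrays, Cd79a, Cd22 and Pax5 are above it on all 3, and no column has 1 colour throughout.

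Other genes of the B cell receptor pathway also gave 0 calls by limma in either direction, with 1 positive and 1 negative at an unadjusted p under 0.05. Such counts, here and for the lists below, stand beside 7.22% of all tested probe sets at that level. Group means are given with the controls first. Among 14 tested coreceptor and signalling genes, 5 were positive and 9 negative, with a median of -0.08. Some of them were bright in these T cell samples, such as Prkcb, named for its intensity, at 4008 to 4477. Sh3bp5, which encodes an inhibitor of the kinase Btk, averaged 2335 ± 18.4 without and 1902 ± 88.6 with Ezh2 deficiency, with no overlap (log2 difference -0.29, adjusted p = 0.483). Sh3bp5 read -0.46 and -0.0023 on the remaining probe sets. Cd81, a partner of the B cell coreceptor that T cells also express, averaged 780 ± 131 and 1064 ± 165 (0.43, adjusted p = 0.619). Cr2, the complement receptor of mature B cells, lay between 92.3 and 127 on the 6 arrays and was under the filter.

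Immunoglobulin probe sets fell into bright and dim ones. Of 11 Ighm probe sets, which read the mu heavy chain, the 2 brightest read 5893 to 12137 over the 6 arrays and differed by 0.03 and -0.10 between the groups. The other 9 did not exceed 663. The bright ones end in _a_at and _s_at, suffixes for probes that match several transcripts. Of the 7 Ighm probe sets that passed the filter, 1 was positive and 6 were negative. All 3 Igha probe sets, of the alpha heavy chain, were positive at 0.28 to 0.84, with none called. Over the brightest probe sets of the 5 tested immunoglobulin genes, 2 were positive, with a median of -0.04, and limma called 0, also at an unadjusted p under 0.05. Ighg3, of a gamma chain, was at -0.20. Light chain genes were dim: Igk, Igkv1-117 and Iglv1, named for their intensity, did not exceed 253, 54.5 and 46.6 on any probe set. Which cells gave the RNA of the bright Ighm probe sets was not tested.

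Of 14 tested B cell transcription factor genes, 9 were positive, against 49.3% of all tested probe sets, with a median of 0.04 and 0 called by limma (2 positive at an unadjusted p under 0.05). Some of these genes were bright in these T cell samples, such as Ets1, named for its intensity, at 15776.8 to 17625.5. Which cells gave the RNA of this list was not tested. Bcl6, a repressor active in germinal centre B cells and follicular helper T cells, averaged 388 ± 53.5 and 521 ± 33.3 (0.39, adjusted p = 0.619). Its other probe set was at 0.11. Ikzf3 was at 0.20 on its brightest probe set but at -0.30 on another. The coactivator gene Pou2af1 was at 0.25 and Spib at 0.12 (0.24 without Ezh2 fl/fl replicate 1), both with overlapping groups.

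Of 15 tested genes of mature B cell surface and survival, 7 were positive and 8 negative, with a median of -0.03 and 0 called by limma (3 positive at an unadjusted p under 0.05). Another 6 of the 21 genes of this list on the array lay under the filter. Ltb, named for its intensity, was bright in these T cell samples, at 19068 to 19946. Which cells gave the RNA of these genes was not tested. The smallest p belonged to Ms4a4c, a relative of Ms4a1, which averaged 3576 ± 311 and 5025 ± 611 (0.48, adjusted p = 0.368) and stood at 0.58 on its other probe set. The contrast with Ms4a1 itself, at -0.12, was not tested. Cxcr5, the follicle homing receptor of B cells and follicular helper T cells, averaged 363 ± 39.2 and 544 ± 67.1 (0.53, adjusted p = 0.483). Fcer2a, the low affinity receptor for immunoglobulin E on mature B cells, was under the filter at 33.1 to 97.3.

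Progenitor and plasma cell genes also gave 0 calls by limma, with 1 positive progenitor gene, Myb, and 0 plasma cell genes at an unadjusted p under 0.05. Of 6 tested progenitor genes, 3 were positive and the median was -0.01. The other 6 of the 12 progenitor genes on the array lay under the filter. Myb was not dim, at 663 to 1966 over the 6 arrays, and which cells gave its RNA was not tested. Myb had the smallest p (1.11, adjusted p = 0.0972) and Vpreb3 was at -0.32 (-0.21 without Ezh2 fl/fl replicate 1). Of 10 tested plasma cell genes, 4 were positive with a median of -0.08, and the surface proteoglycan gene Sdc1 was at -0.68 (adjusted p = 0.703), or -0.29 without Ezh2 deficient replicate 3.

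MHC class II genes, which B cells and dendritic cells share, went both ways, with 5 of 10 positive and a median of -0.06. Limma called 0, and at an unadjusted p under 0.05 there were 2 positive and 3 negative, against 7.22% of all tested probe sets. The alpha chain gene H2-Aa averaged 361 ± 104 and 517 ± 89 in the 2 groups on its brightest probe set (0.49, adjusted p = 0.669), with overlap, and its other tested probe sets were at 0.30 and -0.12. The invariant chain gene Cd74 was at 0.32 (adjusted p = 0.692). Without Ezh2 fl/fl replicate 1 these differences were 0.27 for H2-Aa, on its brightest probe set, and 0.19 for Cd74. On the other side stood H2-Oa, a subunit of the peptide loading regulator H2-O, which averaged 796 ± 9.62 and 592 ± 35.7 in the 2 groups (-0.40, adjusted p = 0.442), and H2-DMa, of the loading catalyst H2-M (-0.38, adjusted p = 0.619). H2-Ob, the partner of H2-Oa, picked outside the naming rule once its value was known, was at -0.55 without overlap (adjusted p = 0.619). Its control mean rested on Ezh2 fl/fl replicate 1, at 2061 against 1256 and 1254 in the others, and the difference was -0.32 without that array.

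Lists of other cells that a lymph node preparation may hold also gave 0 calls by limma. At an unadjusted p under 0.05 there were 2 dendritic cell and 1 natural killer cell markers on the positive side, 1 macrophage and 1 red cell marker on the negative side, and 0 stroma markers. Of the tested genes, 6 of 8 dendritic cell markers, 2 of 8 macrophage and monocyte markers, 6 of 8 natural killer cell markers, 1 of 2 red cell markers and 4 of 7 lymph node stroma markers were positive. Summed over the brightest probe sets, the B cell genes ran from 2726 to 3201 in the controls and from 2483 to 2594 in the deficient arrays, and without Cd72 the sums of the other 7 ran from 1167 to 1309 and from 1259 to 1343. Dendritic cell markers ran from 4919 to 5372 and from 5921 to 6732, and from 2766 to 3880 and from 2802 to 3789 without Fscn1 and Bst2. Macrophage and monocyte markers ran from 1852 to 1992 and from 1593 to 1798, and natural killer cell markers from 14064 to 15655 and from 15031 to 15749. Red cell markers ran from 627 to 761 and from 602 to 745, and stroma markers from 2421 to 2959 and from 2525 to 2584. Much of the natural killer cell sum came from Nkg7, at 6280 to 7502, and Klrd1, at 4270 to 5727, both named for their intensity. A large part of the stroma sum came from Pecam1, at 947 to 1281. Of 14 macrophage and monocyte markers, 8 passed the filter, among them Csf1r at 257 to 443 over the 6 arrays and Cd68 at 142 to 220, and 2, C1qa and Marco, lay under the pseudocount on every array. The dendritic cell marker Ccl22 was at 0.51 (adjusted p = 0.619) and Fscn1 at 1.18 with overlap (adjusted p = 0.636), or 0.64 without Ezh2 fl/fl replicate 1 and 0.20 on its other tested probe set. The natural killer markers Gzma and Klre1 were at 0.63 and 0.34. The macrophage marker Csf1r was at -0.42 on its brightest probe set but at 0.12 and 0.29 on its others, and Adgre1 was at 0.23, or 0.061 without Ezh2 deficient replicate 1. The red cell genes Hba-a1 and Hba-a2 were at -0.38 and 0.22, and the stroma genes Pecam1 and Col1a1 at -0.20 (-0.099 without Ezh2 fl/fl replicate 1) and 0.29. T cell markers were positive for 7 of 15, with Cd8b1 at -0.17, Cd6 at 0.23, Cd3e and Cd4 at -0.04 each (Cd4 at 0.10 without Ezh2 fl/fl replicate 1) and Cd8a at -0.06. The part of these other cells in the values of the 8 B cell genes was not tested.

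**Figure D4:**
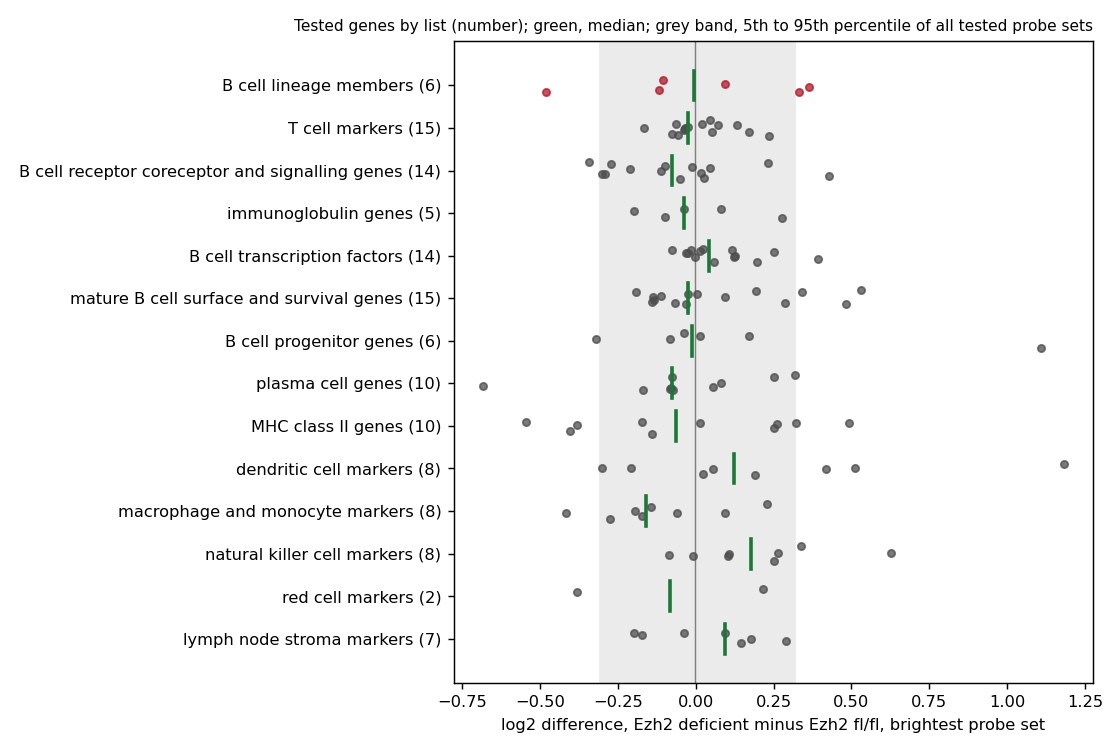
Log2 difference of the brightest probe set of each tested gene, Ezh2 deficient minus Ezh2 fl/fl, by gene list with the number of tested genes in brackets. Green bars are medians, the grey band spans the 5th to 95th percentile of all tested probe sets (-0.31 to 0.32) and points are offset vertically at random. The medians of the lists lie between -0.16 and 0.18.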

How the data were processed

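Mouse lymph node T cells were measured on 6 single-colour arrays, 3 Ezh2 fl/fl and 3 Ezh2 deficient. The deposited values are linear intensities, 1 per probe set and array, and no source used here names the tools by which the authors made them. The mean intensity of the deposited table, trimmed by 2% at each end, was 500.002 on every array. Medians still differed by up to 15.2%, so the arrays were quantile normalised, a pseudocount of 43.3 (the 20th percentile) was added and log2 taken. Control probe sets (64) and those with a mean log2 value under the 40th percentile were left out, which kept 27022. Differences were tested across all of these, two-sided, with limma 3.58.1 in R 4.3.3 (eBayes with trend, Benjamini-Hochberg adjustment, called at an adjusted p under 0.05). No detection calls were used, and the number of arrays limits the precision. The limma step was tested on simulated data. Promoters were read from a RefSeq table. Genes named were the 8 members, Ezh2, the 2 genes of smallest p in each list, 12 B and T cell genes named by rule where the annotation held them, and the 8 nearest profiles; exceptions are stated. The members and lists were chosen with earlier results of these data known. The alternatives were other scalings, pseudocounts, filters, moderation (statmod 1.5.0), array weights, 1 array left out and the mean of a gene's probe sets. Leaving out arrays for genes beyond the 8 was added after seeing the data.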

Additional observations from a re-analysis of the deposited data

How the results depend on the processing

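No paired analysis was possible because the titles number the arrays in 1 run across both groups, so that no number is shared. No alternative called a member probe set: the count was 0 in all 15, with the smallest adjusted p for any of them, 0.156, reached by Cd72 without Ezh2 fl/fl replicate 3. The number of genes with a positive difference ran from 3 to 5 of 8 over 16 alternatives, and from 4 to 5 with each array left out. Their median difference ran from -0.059 to 0.071. The medians of single arrays had a pooled SD of 0.0897 within groups, which is not the spread of a difference between group means. The signs of Cd72, Cd22, Cd79a, Pax5 and Blnk were the same in all 16. Some of these could not turn a sign, because changes of filter or moderation altered only the tests. The mean of a gene's probe sets left Cd72, Cd79a and Blnk, with 1 probe set each, as they were. Array weights left the untested Cd79a and Blnk as they were. The sign turned for Ms4a1 (to 0.11) and Ebf1 (to -0.084) without Ezh2 fl/fl replicate 1, for Cd79b (to 0.0087) without Ezh2 fl/fl replicate 2, and for Ebf1 (to -0.067) with the mean of all its probe sets. With each array left out in turn, Ms4a1 ran from -0.25 to 0.11, Ebf1 from -0.084 to 0.27 and Cd79b from -0.24 to 0.0087. The cause was not tested. Low signal limits Cd79a, Blnk, Pax5 and Ebf1, whose values lie near or under the filter.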
